A study of Mus musculus with 12 samples.

Results

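The liver makes glucose by gluconeogenesis and releases it between meals, and takes glucose up, breaks it down by glycolysis and stores it as glycogen after them. Insulin lowers the expression of the gluconeogenic enzymes and of some secreted proteins in hepatocytes, whereas glucagon and glucocorticoids raise it, and a high glucose level itself raises the enzymes of glycolysis. The 9 genes described here are the enzymes Pck1, G6pc, Fbp1 and Pcx of gluconeogenesis, the glycolytic enzyme gene Pklr, the glucose transporter gene Slc2a2, the coactivator gene Ppargc1a, and Igfbp1 and Irs2, which respond to insulin. They were chosen by name with earlier results of these data known, so their shares of calls describe them and do not test the pathway. All 9 were among the 14188 protein-coding genes of the expression table, with 15 of its 29883 protein-coding transcripts.

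Liver RNA was sequenced from 12 male mice, 6 given PZH and 6 controls. All 12 received carbon tetrachloride (CCl4), a liver toxin that causes fibrosis, by injection into the peritoneum 2 times a week from 6 weeks of age, and were killed in the eighth week. Mice of the PZH group were also given Pien Tze Huang (PZH), a Chinese herbal medicine, through a gastric tube each day, and the control group was given water in the same way. The strain is C57BL/8 in the sample labels and C57BL/6J in the study's methods. RNA of mice without CCl4 was not analysed here, so the values show how the PZH and control groups differed in injured liver and not how either differed from healthy liver. Feeding state and time of day at death, both of which act on these genes, are not given in the sources used here.

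Levels are FPKM, fragments scaled to transcript length and to the mapped fragments of the mouse, and the level of a gene is the sum over its protein-coding transcripts. Read counts were not used here. An estimate of the depth from 18 to 34 of the 525 to 759 low values of each mouse, those that lay on steps of 1 to 3 fragments, was 27600000 to 42800000 fragments in PZH mice and 26800000 to 35500000 in control mice, and most low values lay on no such step. Fold changes are differences in mean log2(FPKM + 1), PZH against control, which understate the change of genes with low levels. A gene was called when its adjusted p from limma over all 14188 genes was below 0.05, and P values without adjustment were also combined with a 2-fold change, the criteria of the study.

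Of the 9 genes, 5 were called higher in the PZH group (12.7% of all genes were) and 2 were called lower (32.1% of all genes were). Slc2a2, G6pc, Pklr, Fbp1 and Ppargc1a were higher, Igfbp1 and Pcx were lower, and Pck1 and Irs2 were not called. A 2-fold change with P below 0.05 was found for 4 of the 9, Slc2a2, G6pc, Pklr and Igfbp1, against 4.02% of all genes. The FPKM of the PZH and control groups did not overlap for 4 of the 9, Slc2a2, Pklr, Igfbp1 and Pcx, against 24.3% of all genes. At the level of transcripts, 4 of 15 were called, against 19.7% of all transcripts, and these were the single transcripts of Slc2a2, G6pc and Igfbp1 and the main transcript of Fbp1, whose call ended in 6 of the 12 fits that left out 1 mouse each, those without Control 2 or 3 or PZH 3, 4, 5 or 6 (0.36 to 0.41). That call also ended with equal FPKM sums (0.37, adjusted p = 0.0563) and with a pseudocount of 0.1 (0.41, adjusted p = 0.0607). The median log2 fold change was 0.41 over the 9 genes and -0.11 over all genes.

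The split of all calls depended on the scale. With the FPKM as deposited, 1798 genes were higher and 4560 lower, so that 28.3% of the calls were higher. After each mouse was divided by its median-ratio scale factor, 2807 genes were higher and 2739 lower (50.6% of the calls higher), and the median log2 fold change of all genes moved by 0.11. On that scale 6 of the 9 genes were higher, with Irs2 added, and 2 were lower. Relative to the median gene, the log2 fold changes of Slc2a2, G6pc and Pklr were 2.30, 1.78 and 1.27, and those of Igfbp1 and Pcx were -2.45 and -0.44.

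**Figure D1:**
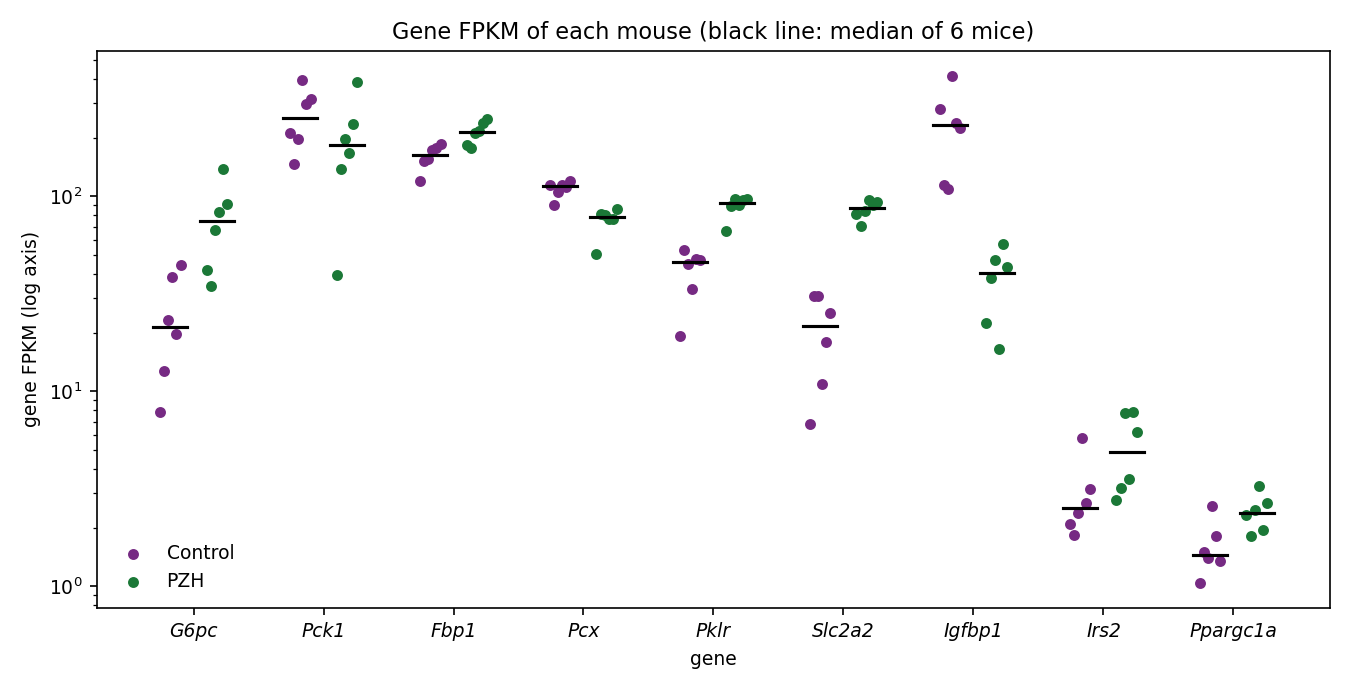
FPKM of the 9 genes in each mouse, on a log axis, with 6 control mice in purple and 6 PZH mice in green and the median of each group as a black line. The groups do not overlap for Pcx, Pklr, Slc2a2 and Igfbp1, and the Igfbp1 median is 232 FPKM in the control group and 40.7 FPKM in the PZH group.

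Liver RNA comes from several cell types, and fewer cells of a type cannot be told apart from less RNA per cell. Of the 6 hepatocyte markers, 4 were called higher in the PZH group and none lower, and the other 2, Apoa1 and Apoc3, were not called. The most abundant, the albumin gene Alb, had a mean of 24059 ± 4039 FPKM (SD, n = 6) in the control group and 38437 ± 5471 FPKM (SD, n = 6) in the PZH group. The summed level of the 6 markers was 39360 to 54500 FPKM in the PZH mice and 21810 to 35320 FPKM in the control mice, without overlap. None of the 6 was at 0 in any mouse. Each member was therefore also compared after the FPKM of each mouse was divided by the geometric mean of these 6 markers. On that scale Slc2a2, G6pc and Pklr were called higher and Igfbp1 and Pcx lower, as with the deposited FPKM, and Fbp1 and Ppargc1a were not called. Of all genes, 4.78% were called higher on that scale and 59.0% lower.

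Hepatocytes differ along the liver lobule, with gluconeogenesis known to be highest near the portal vein. Of 6 periportal markers 3 were called higher in the PZH group and none lower, among them the urea cycle gene Ass1 with 362 ± 64.0 FPKM in the control group and 735 ± 176 FPKM in the PZH group (SD, n = 6 each). Cyp2f2, the most abundant periportal marker in the control group, was not called, with 515 ± 75.1 and 535 ± 54.9 FPKM. Of 5 pericentral markers that had values, 2 were called higher and none lower. These were Cyp2e1, the enzyme that activates CCl4, with 206 ± 60.4 FPKM in the control group and 972 ± 263 FPKM in the PZH group (SD, n = 6 each), and Cyp1a2. The summed level of the pericentral markers was 875 to 1860 FPKM in the PZH mice and 245 to 436 FPKM in the control mice. Cyp2e1 and Cyp1a2, the latter at 95.9 ± 25.7 FPKM in the control group and 405 ± 198 FPKM in the PZH group, made up most of it. Glul, Rhbg and Oat were not called (log2 fold changes 0.32, 0.26 and -0.49), and Oat had the lower mean in the PZH group. The summed level of the periportal markers, 1760 to 2388 FPKM in the PZH mice and 1273 to 1765 FPKM in the control mice, met at its edge. The part of these markers in the levels of the 9 genes was not tested beyond the scaling by the 6 hepatocyte markers.

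Markers of other cells were called in both directions, and the counts stand beside 12.7% of all genes called higher and 32.1% called lower. Of 6 macrophage markers 2 were higher, Clec4f and Csf1r, and 2 lower, Cd14 and Cd68, and the most abundant, Lyz2, was not called. Cd14 fell from 52.8 ± 14.3 to 7.99 ± 5.33 FPKM (SD, n = 6 each). Clec4f rose from 22.7 ± 6.16 to 34.0 ± 6.82 FPKM and Csf1r from 25.2 ± 2.64 to 33.3 ± 5.60 FPKM. Of 6 stellate cell and myofibroblast markers 1 was higher, the most abundant, Col3a1, and 2 were lower, Acta2 and Des. Of 6 endothelial markers 2 were lower, of 6 cholangiocyte markers 2 were lower, Sox9 and Cldn4, and of 6 neutrophil markers 2 were lower, with no marker of these cells called higher. The summed neutrophil level was 142 FPKM in PZH 3, against 13.7 to 23.8 FPKM in the other PZH mice and 19.4 to 65.7 FPKM in the control mice, and the most abundant marker, S100a8, had 76.0 FPKM in PZH 3. No lymphocyte marker was called, and the summed level of the 6 was 2.34 to 4.22 FPKM in the PZH mice and 2.49 to 4.52 FPKM in the control mice. Epcam, a cholangiocyte marker, was at 0 in at least 1 mouse. Their part in the results was not tested.

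Among the enzymes of gluconeogenesis, G6pc rose and Fbp1 rose by less, Pcx fell, and Pck1 was not called. G6pc (ENSMUSG00000078650, chr11:101367561-101377903, plus strand) encodes the catalytic subunit of glucose-6-phosphatase, which releases free glucose in the last step of the pathway. Its FPKM in the PZH mice was 34.8 at the lowest, 75.3 at the median and 138 at the highest, and in the control mice 7.84, 21.5 and 44.3. The groups overlapped, with 4 of 6 PZH mice above the highest control mouse and 4 of 6 control mice below the lowest PZH mouse. The means were 76.0 ± 37.5 and 24.4 ± 14.4 FPKM (SD, n = 6 each), a ratio of 3.11. G6pc had a log2 fold change of 1.67 with a standard error of 0.42 (limma, adjusted p = 0.0059, and exact permutation p = 0.011, two-sided), and 47 of the 14188 genes had a larger one.

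Fbp1 (ENSMUSG00000069805, chr13:62864753-62888282, minus strand) encodes fructose-1,6-bisphosphatase, which opposes phosphofructokinase. In FPKM, the PZH mice had 178 at the lowest, 214 at the median and 250 at the highest, and the control mice 120, 164 and 185. The groups overlapped between 178 and 185 FPKM, and 4 of 6 PZH mice lay above every control mouse. Fbp1 had a log2 fold change of 0.41 with a standard error of 0.12 (limma, adjusted p = 0.0114). Divided by the hepatocyte markers, it was -0.03 with an adjusted p of 0.870, so that the rise of Fbp1 was not larger than that of these markers. Fbp1-201 held 99.4% or more of the Fbp1 FPKM in each mouse.

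Pcx (ENSMUSG00000024892, chr19:4510472-4621752, plus strand) encodes pyruvate carboxylase, the mitochondrial enzyme that makes oxaloacetate from pyruvate at the entry to the pathway. The PZH mice had 50.4 FPKM at the lowest, 78.7 at the median and 85.9 at the highest, and the control mice 89.9, 113 and 120. All 6 PZH mice lay below all 6 control mice, and PZH 1 was far below the other PZH mice, which began at 76.6 FPKM. Pcx had a log2 fold change of -0.55 with a standard error of 0.12 (limma, adjusted p = 0.00267, and exact permutation p = 0.0022, two-sided, the smallest that the 924 labellings can give). Without PZH 1 it was still called, and over the fits that left out 1 mouse each it lay between -0.60 and -0.44. On the median-ratio scale it was -0.36 and after division by the hepatocyte markers -0.98, called lower on both.

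Pck1 (ENSMUSG00000027513, chr2:173153048-173159273, plus strand) encodes the cytosolic phosphoenolpyruvate carboxykinase, the enzyme of this pathway best known for its control by hormones. The PZH mice had 39.7 FPKM at the lowest, 183 at the median and 385 at the highest, and the control mice 147, 254 and 398. The mice of the PZH group differed by up to 9.68 times from each other, the widest range of the 9 genes in either group, and 4 of 6 PZH mice lay within the range of the control mice. The log2 fold change of -0.63 had a standard error of 0.44 (limma, adjusted p = 0.269, and exact permutation p = 0.25, two-sided), so the direction was not settled. It was between -0.88, without PZH 6, and -0.23, without PZH 1, over the fits that left out 1 mouse each. Divided by the hepatocyte markers, it was -1.06 and just missed the threshold (adjusted p = 0.0553).

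Pklr (ENSMUSG00000041237, chr3:89136142-89146784, plus strand) encodes the pyruvate kinase of liver and red blood cells, the last step of glycolysis, and is known to rise with glucose and insulin. It was higher in the PZH group, as G6pc was, although the enzymes run in opposite directions. For Pklr, PZH mice had 66.2 FPKM at the lowest, 93.1 at the median and 96.9 at the highest, and the control mice 19.3, 46.1 and 52.9. All 6 PZH mice lay above all 6 control mice, and 5 of them lay within 89.9 to 96.9 FPKM. The means were 89.3 ± 11.7 and 40.9 ± 12.4 FPKM (SD, n = 6 each), a ratio of 2.18, and the log2 fold change was 1.16 with a standard error of 0.21 (limma, adjusted p = 0.000658, and exact permutation p = 0.0022, two-sided). After division by the hepatocyte markers, the log2 fold change of Pklr was 0.73 (limma, adjusted p = 0.004).

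Pklr is known to have an upstream promoter used in red blood cells and a downstream promoter used in liver. Of its 3 transcripts, Pklr-201 starts upstream at position 89136142 and has a coding length of 1722 bases, and Pklr-202 starts at position 89136572 and has a coding length of 1629 bases. Pklr-202 and the short Pklr-203, of 349 bases, carried nearly all of the gene in 11 of the 12 mice. In PZH 2, Pklr-201 had 53.1 FPKM and Pklr-202 had 10.02 FPKM, whereas the other 5 PZH mice had 0 FPKM of Pklr-201 and 40.4 to 68.8 FPKM of Pklr-202. In the control group only Control 5 had a value of Pklr-201 above 0, of 0.608 FPKM. Pklr-202 had a log2 fold change of 0.64 (limma over all transcripts, adjusted p = 0.307), and without PZH 2 it was 1.04 (adjusted p = 0.00152). Pklr-203 was at 0 in Control 1, and its log2 fold change was 1.60 (adjusted p = 0.110), or 0.93 without Control 1 (adjusted p = 0.0150). The gene sum of PZH 2, 89.9 FPKM, was close to those of the other PZH mice, so the call of the gene does not rest on the split. FPKM divides by transcript length, and a sum over a short and long transcripts gives the short one more weight per fragment.

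The transcripts of Pcx showed a split of the same kind. Pcx-201, Pcx-202 and Pcx-204 have coding lengths of 3537, 3534 and 3534 bases. Pcx-204 held 98.0 to 98.7% of the Pcx FPKM in 8 mice, 5 of the PZH group and 3 of the control group. In PZH 3 it held 75.8%, and in Control 2, Control 4 and Control 6 it held 34.6, 9.17 and 8.24%, with Pcx-201 at 63.4, 56.0 and 50.0%. The mean share of Pcx-204 was 94.5 ± 9.19% among PZH mice and 58.0 ± 45.5% among control mice (SD, n = 6 each), a difference within the spread (exact permutation p = 0.18, two-sided). Of the 9 transcript shares compared for Fbp1, Pcx and Pklr, none had an exact permutation p below 0.16. Values of single Pcx transcripts are uncertain where transcripts share exons, and the gene sum was used.

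**Figure D2:**
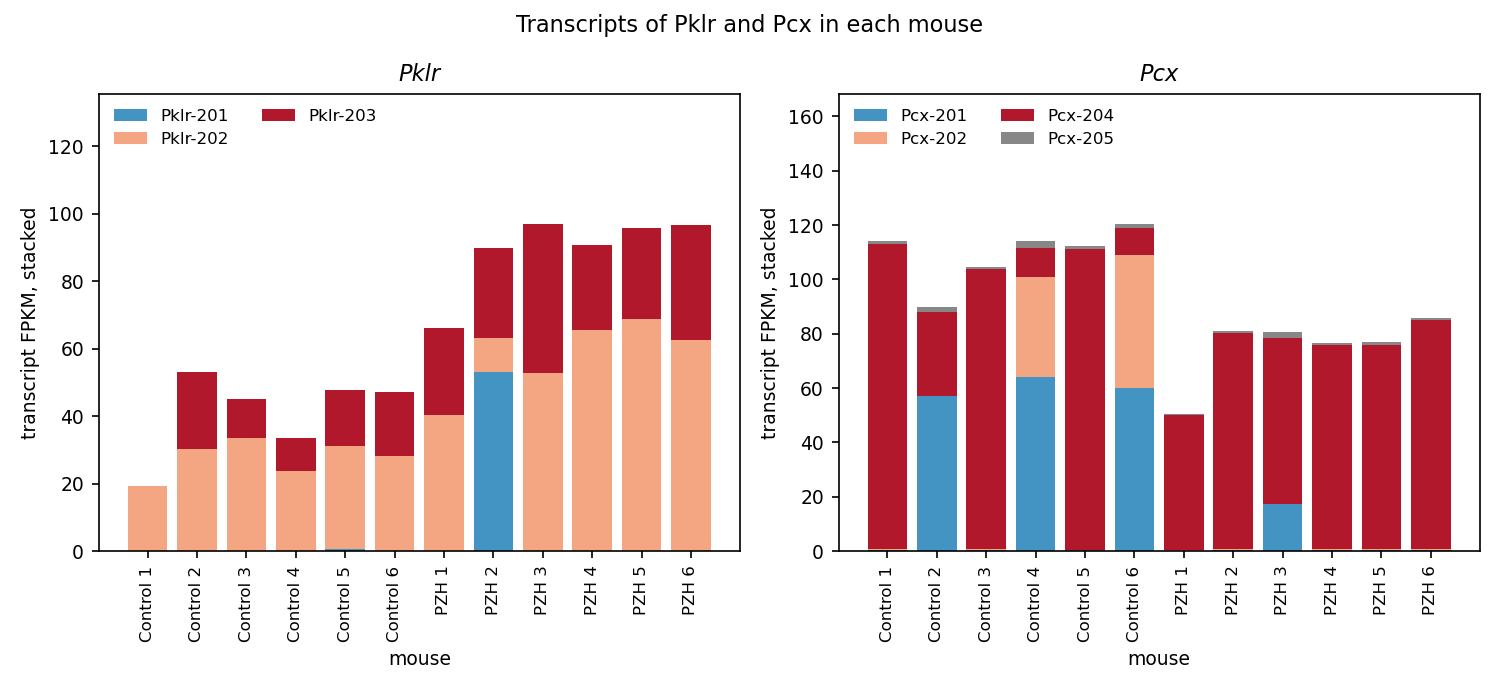
FPKM of each transcript of Pklr and Pcx, stacked, in 6 control mice and 6 PZH mice. PZH 2 alone has a large share of Pklr-201, with 53.1 FPKM, and Pcx-201 is large in Control 2, Control 4 and Control 6, with 57.0, 64.1 and 60.1 FPKM, while the height of the whole bar differs less between the mice of a group.

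Slc2a2 had the largest rise of the 9 genes. It (ENSMUSG00000027690, chr3:28697903-28731359, plus strand) encodes GLUT2, the transporter that carries glucose in both directions across the hepatocyte membrane. Among PZH mice the lowest FPKM was 70.6, the median 87.3 and the highest 96.2, and among control mice they were 6.82, 21.6 and 30.8. All 6 PZH mice lay above all 6 control mice, and the lowest PZH mouse was still above the highest control mouse by more than the SD of either group, 9.43 and 10.2 FPKM. The control mice spread over 4.52 times, with Control 1 and Control 4 at 6.82 and 10.9 FPKM, and the PZH mice over 1.36 times. The mean was 4.22 times higher in the PZH group, and the log2 fold change was 2.19 with a standard error of 0.31 (limma, adjusted p = 0.000134, and exact permutation p = 0.0022, two-sided). Only 16 of the 14188 genes had a larger positive log2 fold change. Divided by the hepatocyte markers, it was 1.77 (adjusted p = 0.000107).

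Igfbp1 had the largest fall. It (ENSMUSG00000020429, chr11:7197782-7202546, plus strand) encodes a secreted binding protein of insulin-like growth factors, made mainly by the liver and known to fall with insulin and to rise in fasting and in liver injury. The PZH mice had 16.4 FPKM at the lowest, 40.7 at the median and 57.0 at the highest, and the control mice 110, 232 and 415. All 6 PZH mice lay below all 6 control mice, and both groups spread widely, by 3.47 times in the PZH group and 3.78 times in the control group. The means were 37.4 ± 15.4 and 231 ± 114 FPKM (SD, n = 6 each), and the control mean was 6.17 times that of the PZH group. The log2 fold change was -2.56 with a standard error of 0.36 (limma, adjusted p = 0.000149, and exact permutation p = 0.0022, two-sided), and 9 of the 14188 genes had a lower one. Divided by the hepatocyte markers, it was -2.99 (adjusted p = 9.5e-05).

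The control mice with the most Igfbp1 had the least Slc2a2. Control 4 and Control 1 had 415 and 281 FPKM of Igfbp1 with 10.9 and 6.82 FPKM of Slc2a2, and Control 2 and Control 3 had 115 and 110 FPKM of Igfbp1 with 30.8 FPKM of Slc2a2 each. The PZH mice did not follow this order. PZH 4 had the least Igfbp1 and the most Slc2a2, 16.4 and 96.2 FPKM, but PZH 1, with the next lowest Igfbp1, had the next lowest Slc2a2, 22.3 and 81.8 FPKM. The order among the control mice was noticed in the values and was not tested.

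Irs2 (ENSMUSG00000038894, chr8:10984681-11008458, minus strand) encodes an adaptor that carries the signal from the insulin receptor, and insulin is known to lower its expression. The PZH mice had 2.78 FPKM at the lowest, 4.87 at the median and 7.87 at the highest, and the control mice 1.84, 2.53 and 5.80. Of the PZH mice 3 lay above all control mice, and the other 3 lay within their range, which Control 4 widened, since the other 5 control mice reached only 3.16 FPKM. The log2 fold change of 0.62 with a standard error of 0.26 had P = 0.0341 and missed the adjusted threshold (limma, adjusted p = 0.0706, and exact permutation p = 0.058, two-sided). Irs2 was called without Control 4 (0.78, adjusted p = 0.0189), without PZH 1 (0.74, adjusted p = 0.0346), without PZH 2 (0.71, adjusted p = 0.0478) and on the median-ratio scale (0.77, adjusted p = 0.0275). Over all its alternatives the log2 fold change was between 0.27 and 0.78.

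Ppargc1a (ENSMUSG00000029167, chr5:51454250-51553922, minus strand) encodes PGC-1alpha, a coactivator that is induced in the fasted liver and acts on gluconeogenic and mitochondrial genes. It had the lowest level of the 9 genes, with 1.81 to 3.25 FPKM in the PZH mice and 1.05 to 2.57 FPKM in the control mice, and rests on an estimated 215 to 691 fragments a mouse. The groups overlapped, with 2 of 6 PZH mice above all control mice. The log2 fold change was 0.39 with a standard error of 0.13 (limma, adjusted p = 0.0296, and exact permutation p = 0.028, two-sided). Leaving out any 1 of 7 mice, Control 1, 2, 3 or 6 or PZH 3, 4 or 6, ended the call, with log2 fold changes of 0.33 to 0.49 over the 12 such fits. It also ended after division by the hepatocyte markers (0.10, adjusted p = 0.594), and the fit over all transcripts did not call it (adjusted p = 0.0680).

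The order of the levels, which are FPKM and so per length, differed between the groups. In the control group Pck1 and Igfbp1 had the highest means, 261 ± 92.2 and 231 ± 114 FPKM, followed by Fbp1 with 161 ± 23.5, Pcx with 109 ± 10.7, Pklr with 40.9 ± 12.4, G6pc with 24.4 ± 14.4, Slc2a2 with 20.4 ± 10.2, Irs2 with 2.99 ± 1.45 and Ppargc1a with 1.61 ± 0.532 FPKM (SD, n = 6). Neighbours within their spread were Pck1 and Igfbp1, Igfbp1 and Fbp1, and G6pc and Slc2a2, where the order of the means held in 4 of 6 mice each. In the PZH group Fbp1 led with 213 ± 28.7 FPKM, followed by Pck1 with 194 ± 115 FPKM. Pklr with 89.3 ± 11.7, Slc2a2 with 86.2 ± 9.43, G6pc with 76.0 ± 37.5 and Pcx with 75.2 ± 12.6 FPKM came next, with Pklr above Slc2a2 in 4 of 6 mice, Slc2a2 above G6pc in 5 and G6pc above Pcx in 3. Igfbp1, at 37.4 ± 15.4 FPKM, was below them, and Irs2 and Ppargc1a were again the lowest, with 5.22 ± 2.33 and 2.41 ± 0.522 FPKM. Fbp1 and Pklr varied least among the PZH mice after Slc2a2, with coefficients of variation of 13.4 and 13.1% against 10.9%, and Pck1 varied most, with 59.1%.

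Genes whose variation among the mice of a group was most like that of a member were sought among 10948 genes with a mean of at least 1 FPKM, by Pearson's r of log2(FPKM + 1) with each group's mean subtracted, over the 12 mice. Since these are the highest of many values they carry no p. For the gluconeogenic enzymes they were Tfr2 (r = 0.963) and Klhl21 (0.949) for Pck1, Acaa1a and Rbm15 (0.921 each) for G6pc, Aifm2 (0.953) and Pglyrp2 (0.924) for Fbp1, and Ralgapa2 (0.949) and Tmem170b (0.942) for Pcx. For Slc2a2 they were Eva1a (0.962) and Slc26a1 (0.951), and for Pklr Lzts2 and Irs1 (0.936 each). For Igfbp1 they were Vrk3 (0.955) and Tgif1 (0.909), for Irs2 Mat2a (0.946) and Atg14 (0.936), and for Ppargc1a, with the weakest likeness, Fam126b (0.871) and Mbl1 (0.860). Of the 14 found for the 7 called members, 8 were called in the direction of the member, 5 were not called, and Rbm15 was called in the opposite direction (log2 fold change -0.30, limma, adjusted p = 0.0138). Over all genes, 12.7% were called higher and 32.1% lower. The largest differences of the 8 were those of Slc26a1, with 27.1 FPKM in the control group and 61.3 FPKM in the PZH group (log2 fold change 1.24, limma, adjusted p = 0.00178), and Tgif1, with 16.9 and 7.06 FPKM (log2 fold change -1.15, limma, adjusted p = 0.00012).

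The wider pathway was described by 7 lists with 132 genes beside the 9, of which 128 were in the table. These lists too were chosen with earlier results of these data known, so their shares are descriptive. Of these, 37 were called higher in the PZH group and 34 lower, and 57 were not called, with a median log2 fold change of 0.11. That is 28.9% higher and 26.6% lower, against 12.7% and 32.1% of all genes. On the median-ratio scale the counts were 57 higher and 24 lower, against 19.8% and 19.3% of all genes. After division by the hepatocyte markers, an alternative added for the lists after seeing the data, they were 15 higher and 55 lower, against 4.78% and 59.0% of all genes. These shares of all genes belong beside the counts of each list on the same scale.

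Of 28 other enzymes of gluconeogenesis and glycolysis, 8 were higher and 10 lower (median log2 fold change 0.03), with 10 and 7 on the median-ratio scale and 2 and 14 after division by the hepatocyte markers. Pkm, the pyruvate kinase of muscle and most other cells, fell from 41.7 ± 8.70 to 14.4 ± 1.92 FPKM (SD, n = 6 each), opposite to Pklr, and the groups did not overlap (log2 fold change -1.45, limma, adjusted p = 1.56e-05). Aldoa, the aldolase of muscle, fell from 69.0 ± 6.50 to 35.9 ± 5.17 FPKM, also without overlap (log2 fold change -0.93, limma, adjusted p = 2.67e-05). Pfkfb1, the liver form of the enzyme that sets fructose-2,6-bisphosphate, rose from 7.79 ± 2.54 to 15.5 ± 4.86 FPKM (log2 fold change 0.91, adjusted p = 0.0033). Pfkfb2 and Pfkfb3, other forms of it named after their values were seen, fell. Pfkfb2 went from 9.14 ± 2.19 to 4.69 ± 0.560 FPKM (-0.81, limma, adjusted p = 0.000436) and Pfkfb3 from 4.62 ± 2.06 to 2.34 ± 0.514 FPKM (-0.67, adjusted p = 0.0355).

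Slc37a4, the transporter that brings glucose-6-phosphate to the enzyme encoded by G6pc, rose from 19.6 ± 6.63 to 34.3 ± 8.67 FPKM (SD, n = 6 each), with overlap (log2 fold change 0.80, limma, adjusted p = 0.00585), and was not called after division by the hepatocyte markers (0.38, adjusted p = 0.0533). Pck2, the mitochondrial counterpart of Pck1, was low and alike, 1.29 ± 0.364 and 1.33 ± 0.156 FPKM, and not called (0.03, adjusted p = 0.805). Gapdh, an enzyme of every cell with many near-identical copies in the genome, was named after its values were seen. It was listed at 1.18 to 21.8 FPKM in the control mice and 2.62 to 18.8 FPKM in the PZH mice, an uneven estimate that cannot serve as a level.

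Of 19 genes of pyruvate, lactate and amino acid entry, 8 were higher and 2 lower (median log2 fold change 0.24). On the median-ratio scale 12 were higher and none lower. Division by the hepatocyte markers gave 4 higher and 6 lower, beside 4.78% and 59.0% of all genes. Pdk2, a kinase that shuts pyruvate dehydrogenase, had the largest change, from 9.32 ± 1.99 to 23.1 ± 5.11 FPKM (SD, n = 6 each) without overlap (log2 fold change 1.22, limma, adjusted p = 0.000115), and Pdk1 rose by 0.73 (adjusted p = 0.00118). Sds and Gpt, which turn serine and alanine into pyruvate, rose from 20.02 ± 5.60 to 38.9 ± 4.003 FPKM and from 22.5 ± 5.67 to 41.0 ± 5.89 FPKM, both without overlap (log2 fold changes 0.96 and 0.87). Gpt2, a second gene for the alanine step, was more abundant and was named after its values were seen. It fell from 109 ± 18.3 to 88.9 ± 10.1 FPKM with overlap (log2 fold change -0.29, limma, adjusted p = 0.0412). Sds is also 1 of the 6 periportal markers.

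Of 15 genes of glycogen metabolism in the table, 7 were higher and 2 lower (median log2 fold change 0.18). With median-ratio scaling 11 were higher and 1 lower. With division by the hepatocyte markers 2 were higher and 5 lower, beside 4.78% and 59.0% of all genes. The liver enzymes of both directions rose together. Gys2, the liver glycogen synthase, rose from 15.1 ± 4.44 to 41.1 ± 6.50 FPKM (SD, n = 6 each; log2 fold change 1.42, limma, adjusted p = 0.000113), and Pygl, the liver glycogen phosphorylase, from 48.0 ± 10.7 to 125 ± 15.1 FPKM (1.38, adjusted p = 2.5e-05). Neither overlapped between the groups, and both were also called after division by the hepatocyte markers. Ppp1r3b, a subunit that directs a phosphatase to glycogen, rose by 0.88 with overlap (adjusted p = 0.022) and was not called after that division (0.46), and Pgm2 fell by 0.92 (adjusted p = 8.76e-05).

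Of 15 genes of glucose transport and sensing, fructose and glycerol in the table, 5 were higher and 3 lower (median log2 fold change 0.29), with 9 and 3 on the median-ratio scale and 3 and 3 after division by the hepatocyte markers. Slc2a1, the glucose transporter of most other cells, fell from 9.21 ± 2.32 to 3.65 ± 0.696 FPKM (SD, n = 6 each) without overlap, opposite to Slc2a2 (log2 fold change -1.12, limma, adjusted p = 5.8e-05). Slc2a5, a fructose transporter, was low in both groups and rose from 0.0841 ± 0.0578 to 0.862 ± 0.211 FPKM without overlap (0.77, adjusted p = 2.15e-05). Khk, the fructokinase, rose from 49.9 ± 10.6 to 99.1 ± 19.0 FPKM (0.99, adjusted p = 0.000312). Mlxipl, which encodes ChREBP, the glucose-sensing factor known to act on Pklr, rose from 27.1 ± 5.06 to 61.4 ± 16.2 FPKM with slight overlap (1.12, adjusted p = 0.000417). Its known target Txnip rose by 0.74 (adjusted p = 0.00119; 0.32 and uncalled after division by the hepatocyte markers), whereas another, Arrdc4, named after its values were seen, fell by 0.56 (adjusted p = 0.00153). Gckr, a regulatory protein of glucose sensing, rose by 0.38 without overlap (adjusted p = 0.00145), but stood at -0.01 after division by the hepatocyte markers.

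Of 24 genes of insulin and glucagon signalling, 2 were higher and 13 lower (median log2 fold change -0.35), with 4 and 10 on the median-ratio scale and none and 19 after division by the hepatocyte markers. Insr, the insulin receptor, was at 27.6 ± 1.66 FPKM in the control group and 30.0 ± 4.20 FPKM in the PZH group (SD, n = 6 each) and not called (log2 fold change 0.10, limma, adjusted p = 0.416), but it was called higher on the median-ratio scale (0.29, adjusted p = 0.0113) and without PZH 1 (0.19, adjusted p = 0.0174). Irs1, the partner of Irs2, rose from 8.03 ± 1.29 to 11.3 ± 1.01 FPKM (0.46, adjusted p = 0.00236), and was not called after division by the hepatocyte markers (0.064). Gcgr, the glucagon receptor, rose by 0.31 (adjusted p = 0.0411), a call that ended without any 1 of 8 mice, Control 1, 4 or 5 or PZH 2, 3, 4, 5 or 6 (0.24 to 0.31), with equal FPKM sums (0.27) and with a pseudocount of 0.1 (0.32). Its sign turned after division by the hepatocyte markers (-0.12).

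The largest fall of that list was in Trib3, an inhibitor of Akt that is induced by stress, from 20.8 ± 5.64 to 4.15 ± 0.913 FPKM (SD, n = 6 each) without overlap (log2 fold change -2.06, limma, adjusted p = 9.42e-06). Sik1, a kinase induced by cyclic AMP that restrains gluconeogenic genes, fell from 13.3 ± 3.80 to 5.15 ± 1.49 FPKM (-1.21, adjusted p = 0.00045). Ptpn1, the phosphatase that acts on the insulin receptor, and Akt1 fell by 0.89 and 0.75 (adjusted p = 0.003 and 0.000183). All 4 were lower in each PZH mouse than in each control mouse.

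Of 20 transcriptional regulators of gluconeogenesis, 5 were higher and 4 lower (median log2 fold change 0.10), with 7 and 3 on the median-ratio scale and 3 and 8 after division by the hepatocyte markers. Foxo1, the factor through which insulin acts on G6pc, Pck1 and Igfbp1, was level at 5.54 ± 0.744 and 5.55 ± 0.917 FPKM (SD, n = 6 each; log2 fold change -0.0022, standard error 0.107, limma, adjusted p = 0.990), and was called lower after division by the hepatocyte markers (-0.37, adjusted p = 0.0261). Nr4a1 and Cebpb, both rapidly induced factors, fell from 3.10 ± 2.31 to 0.509 ± 0.142 FPKM and from 9.78 ± 2.98 to 3.58 ± 0.809 FPKM, without overlap (-1.28 and -1.20, adjusted p = 0.00211 and 0.000311). Stat3 fell by 0.99 (adjusted p = 0.000647), and Ppara, a fasting factor of fatty acid oxidation, rose from 23.4 ± 6.02 to 44.0 ± 4.33 FPKM (0.92, adjusted p = 0.000535). Klf15 rose by 0.75 with overlap (adjusted p = 0.00754) and was not called after division by the hepatocyte markers (0.33). Hnf4a, at 166 ± 7.94 and 135 ± 15.2 FPKM, fell by 0.30 without overlap (adjusted p = 0.00937), a call that ended on the median-ratio scale (-0.11, adjusted p = 0.250).

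Of 7 other genes of the insulin-like growth factor binding proteins and their partner Igfals, 2 were higher and none lower (median log2 fold change 0.29). On the median-ratio scale 4 were higher, and after division by the hepatocyte markers 1 was, with none lower on either, so that none was called in the direction of Igfbp1. Igfbp3, which carries most of the factor in blood, rose from 5.96 ± 0.884 to 13.6 ± 2.49 FPKM (SD, n = 6 each) without overlap (log2 fold change 1.06, limma, adjusted p = 3.26e-05). Igfbp2 rose from 96.7 ± 28.2 to 148 ± 39.8 FPKM with overlap (0.61, adjusted p = 0.0488), a call that ended without any 1 of 8 mice, Control 2, 3, 4 or 5 or PZH 3, 4, 5 or 6 (0.48 to 0.66), and with the replicate number as a block (adjusted p = 0.0950). It also ended with equal FPKM sums (0.57), a pseudocount of 0.1 (0.62) and division by the hepatocyte markers (0.18).

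**Figure D3:**
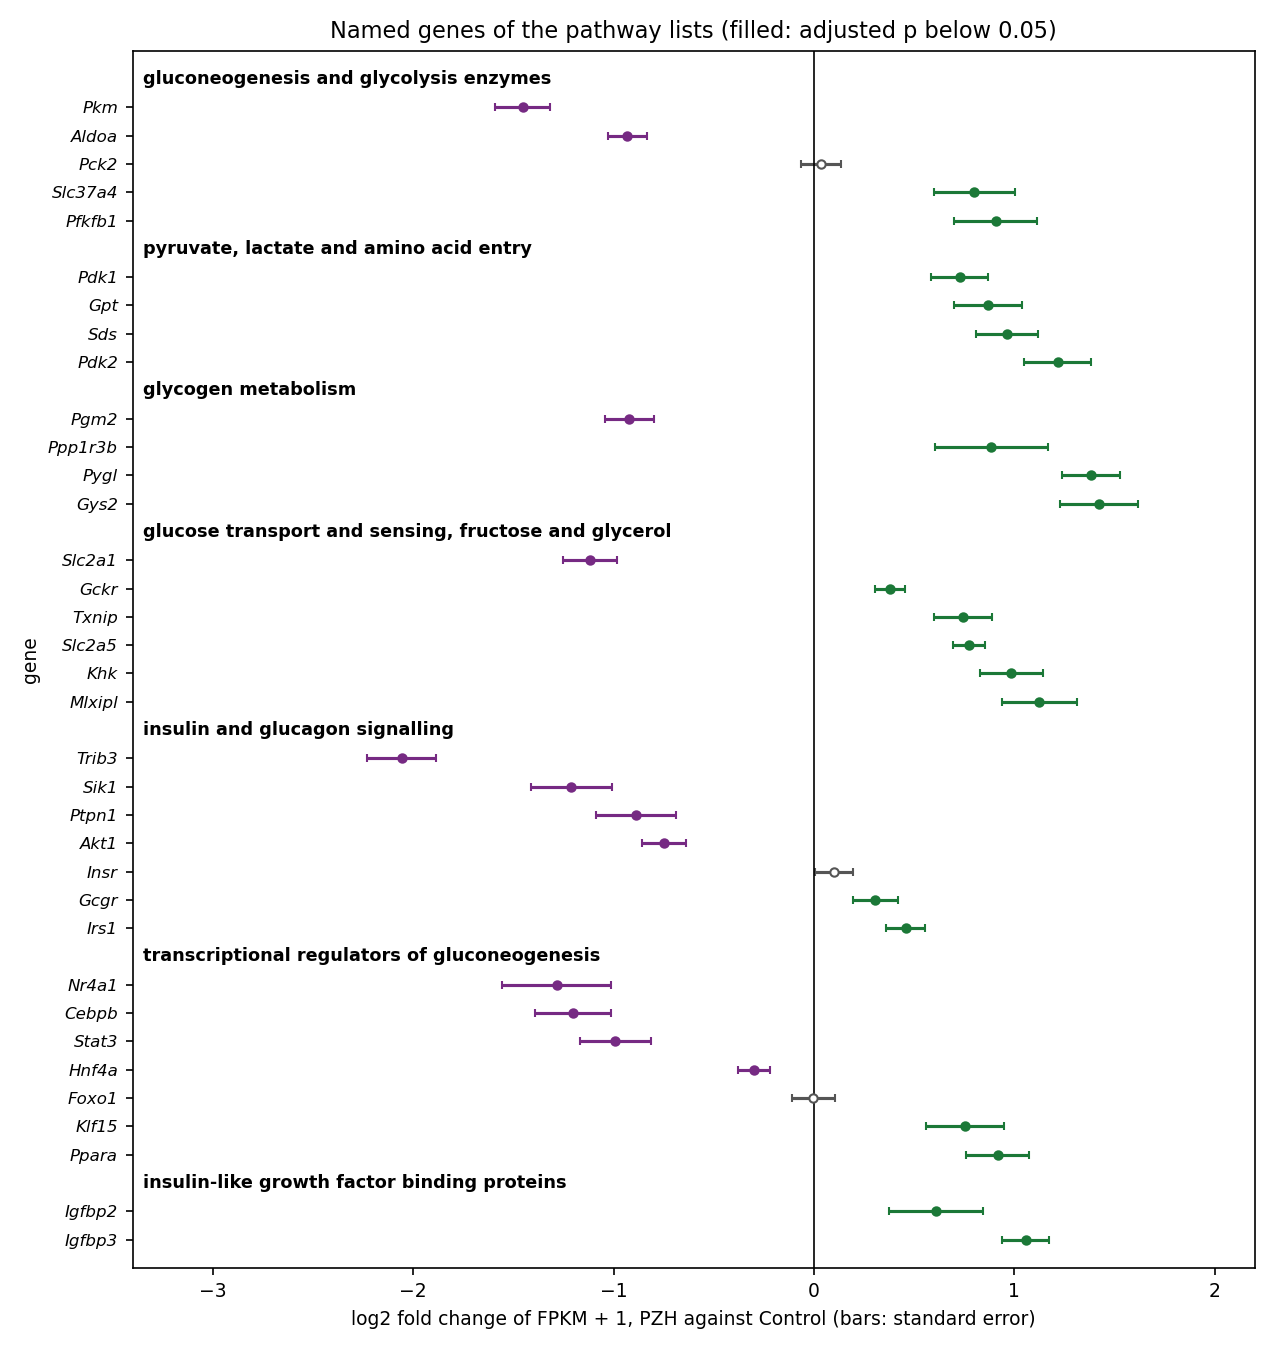
Log2 fold change of FPKM + 1, PZH against control, of genes named from the 7 lists, with bars for the standard error; filled points were called and open points were not. Trib3 lies lowest at -2.06, Gys2 highest at 1.42, and Foxo1 at zero.

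Promoters were compared because Igfbp1, Irs2, G6pc and Pck1 are known to answer to the same hormones, and here Igfbp1 fell, G6pc rose, and Irs2 and Pck1 were not called. RefSeq promoter windows on GRCm38.p6 were found for all 9 genes, 11 windows in all, and the 250 bases before the start were searched on both strands. The insulin response element CAAAACAA was in 2 of the 11 windows and in 2.21% of all 32851 windows of that length, and the E-box CACGTG was in 2 and in 6.02%. The cyclic AMP response element TGACGTCA and the FoxO core GTAAACA were in none of the 11, against 1.55% and 3.17% of all windows. The insulin response element lay from base -108 to -101 of Igfbp1 on its own strand and from -38 to -31 of Irs2 on the opposite strand, next to an E-box at -44, and the other E-box was in Pcx at -248. A variant of the cyclic AMP response element, TTACGTCA, was added after seeing the data and lay from -93 to -86 of Pck1, against 0.447% of all windows. A match is a description of the letters and not of a bound site. The 120 bases from -150 to -31 are shown 5′ to 3′ on the strand of each gene, with the insulin response element of Igfbp1 (chr11:7197637-7197756, plus strand) and Irs2 (chr8:11008960-11009079, minus strand) and the variant element of Pck1 (chr2:173152923-173153042, plus strand) in capitals. They are shown because these genes hold the insulin response element or the added variant.
Igfbp1: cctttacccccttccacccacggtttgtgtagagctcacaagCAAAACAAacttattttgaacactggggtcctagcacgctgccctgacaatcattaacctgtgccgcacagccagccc
Irs2: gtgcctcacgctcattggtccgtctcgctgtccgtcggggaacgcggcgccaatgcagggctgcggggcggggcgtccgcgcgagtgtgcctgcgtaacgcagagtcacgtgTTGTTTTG
Pck1: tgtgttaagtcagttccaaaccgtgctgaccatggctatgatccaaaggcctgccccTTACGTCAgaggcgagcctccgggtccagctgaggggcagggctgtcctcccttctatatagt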

How the data were processed

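The authors isolated liver RNA with TRIzol, removed ribosomal RNA and made strand-specific libraries. Per the study's methods and the submitters' processing notes, reads were trimmed with Trimmomatic, aligned to GRCm38 with HISAT2 and assembled with StringTie on the Ensembl annotation. The deposited values are FPKM for each protein-coding transcript and mouse, and a second table, of lncRNA, was not used here. Groups were taken from the sample titles.

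Transcripts were assigned to genes by GENCODE M21, which held 29876 of 29883, and FPKM were summed per gene. limma 3.58.1 in R 4.3.3 was fitted to log2(FPKM + 1) over all 14188 genes and, separately, all 29883 transcripts, two-sided, with Benjamini-Hochberg adjustment and no filter on low values. The fit was tested on simulated data. Exact permutation tests used the 924 labellings. Tables were made in Python 3.11.15 with scipy 1.17.1, pandas 2.3.3 and numpy 2.4.6, and plots with matplotlib 3.10.9.

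The depth was estimated from single-transcript genes, since 1 fragment adds a fixed step of FPKM times length. For each mouse, 18 to 34 values lay on 1 to 3 steps of the best step size, against a median of 1 for the step sizes tried. Only 9.9 to 13.6% of the low values were within 0.02 of a whole step, which left counts out of reach, and a count test was not run.

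The 9 genes and the lists were chosen with earlier results of these data known. Named were all 9 genes, in each list up to 4 of the called genes with the largest absolute log2 fold change, and Gckr, Slc37a4, Pck2, Mlxipl, Txnip, Pygl, Gys2, Insr, Irs1, Foxo1, Gcgr, Hnf4a and Klf15 whatever their values. Of the listed genes, Ppp1r3g, Slc2a4, Gyk, Aqp7 and the marker Slc1a2 had no value under these names. Alternatives tried were median-ratio scale factors, a pseudocount of 0.1, only genes with 1 FPKM or more on average, equal FPKM sums, a mean-variance trend, the replicate number as a block, division by hepatocyte markers and leaving out each mouse.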

Additional observations from a re-analysis of the deposited data

Results flagged for a closer look

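In groups of 6 mice, a value was singled out when its gap to the nearest other mouse took up more of the range of the group than Dixon's 95% limit allows. Of 108 groups looked at, for 45 genes and 9 transcripts, 13 were marked, and chance marks about 1 in 20.

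PZH 1 was the lowest of its group for Pcx (50.4 FPKM, the others 76.6 to 85.9), Pklr (66.2 FPKM, the others 89.9 to 96.9), Hnf4a (105 FPKM, the others 135 to 146) and Insr (21.7 FPKM, the others 29.8 to 33.0). PZH 1 also had the largest FPKM sum of the 12 mice, 370426, against 325302 to 346874 in the others, and the lowest median-ratio factor, 0.875. The part of this scale in its low values was not tested gene by gene.

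PZH 2 was the lowest of its group for Gys2 (28.5 FPKM, the others 40.3 to 46.9) and Pygl (96.6 FPKM, the others 125 to 138) and the highest for Slc2a1 (5.04 FPKM, the others 3.12 to 3.53) and for the transcript Pklr-201 (53.1 FPKM, the others 0). In the control group, Pklr-201 was at 0.608 FPKM in Control 5 and at 0 in the others.

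Control 4 had the most Irs2 of the control mice (5.80 FPKM, the others 1.84 to 3.16), and Control 2 the most Igfbp3 (7.68 FPKM, the others 5.38 to 6.10). PZH 3 stood apart for the transcripts Pcx-201 (17.2 FPKM, the others 0.108 to 0.250) and Pcx-205 (2.33 FPKM, the others 0.331 to 0.873).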

How the results depend on the processing

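Slc2a2, G6pc, Pklr, Pcx and Igfbp1 kept their direction and their call under all 19 alternatives, with log2 fold changes of 1.77 to 2.38, 1.25 to 1.88, 0.73 to 1.35, -0.98 to -0.36 and -2.99 to -2.35, and Pck1 was not called under any of its 19. On the median-ratio scale, 2807 genes were called higher and 2739 lower, 2490 transcripts lower, and 57 genes of the lists higher, and Irs2 was called (0.77). Division by the hepatocyte markers, added after seeing the data for all but the fold changes of the 9 genes, gave 678 genes higher and 8378 lower, 3 of the 9 genes higher, and 15 genes of the lists higher and 55 lower. Fbp1 then stood at -0.026, Gcgr at -0.12 and Gckr at -0.0094, each uncalled and with the sign turned, and Ppargc1a at 0.10, uncalled. These markers were themselves higher in the PZH group, so this division lowers every value by construction. Leaving out 1 mouse each gave 0.33 to 0.49 for Ppargc1a, which lost its call in 7 of 12 fits, and 0.50 to 0.78 for Irs2, which gained one in 3 of 12. The cause was not tested.

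The replicate number as a block left 1694 genes higher and 4288 lower and changed the call of none of the 9 genes. Deviations from the group means correlated between same-numbered mice at -0.0784 to 0.0929, and no PZH mouse correlated best with its own number, so the numbers carried no pairing that these values show.

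There were 6 mice a group and no uninjured group, food intake and serum glucose or insulin were not analysed here, and RNA levels do not give enzyme activity.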
